A study of Mus musculus with 8 samples.

Results

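Cultured hippocampal neurons were examined for the genes of the mitochondrial ribosome after 4 h of depolarisation. The members were taken by name, as probe sets whose platform annotation gave a single gene symbol beginning with Mrpl or Mrps and a number. They made up 71 of the 22180 genes measured this way, with 28 small-subunit (Mrps) and 43 large-subunit (Mrpl) symbols. For the 9 members with 2 probe sets, the probe set was chosen by its measured mean over all 8 arrays, the higher being used. The family was taken up with earlier results of the same arrays known, so its shared direction is a description and carries no test. The neurons came from C57BL/6J mouse embryos at E18.5 and were kept for 11 days in vitro in medium with AraC, which kills dividing cells. In 4 cultures no further treatment was given, and 4 were held in 55 mM KCl for 4 h, a standard way to depolarise neurons and let calcium in. The labels name no genetic change in any of the 8 cultures and list a different mouse number for every array, so p-values measure the spread between these samples. RNA was read on Affymetrix whole-transcript arrays, and the values are log2 probe set values, whose differences are log2 fold changes.

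Mitochondria keep a small genome that encodes core subunits of the respiratory chain, and these are translated inside the organelle by ribosomes of their own. All protein components of these ribosomes are encoded in the nucleus and imported, while the ribosomal RNAs are made in the mitochondrion. The small subunit decodes the messenger RNA, and the large subunit joins amino acids and threads the new chain to the inner membrane. Some of the proteins descend from bacterial ribosomal proteins, and others have no bacterial counterpart. Symbols do not always give the subunit: in solved structures Mrps30 and Mrps18a sit in the large subunit, and Mrps36 is now known as a component of the 2-oxoglutarate dehydrogenase complex. By structure the members therefore fell into 25 small-subunit and 45 large-subunit genes, with 1 in neither.

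The arrays had medians of 4.44 to 4.48, and the number of arrays limits the precision of all values below. The median marker gene had a mean of 10.71 for neurons, 9.35 for astrocytes, 5.90 for progenitor and cycling cells, 4.37 for fibroblasts, 4.26 for microglia, 4.10 for the oligodendrocyte lineage and 3.92 for endothelial cells. Probe sets differ in response, so these levels give no cell shares, and the last 4 lie below the array medians. Of 8 listed genes that neurons switch on with activity, Junb, Egr4, Fos, Fosb and Nr4a1 rose in the KCl arrays (limma, adjusted p under 0.05). The other 3 were higher but did not pass. Among these was Npas4 (limma adjusted p = 0.0517), with untreated values of 10.61, 8.14, 5.69 and 8.60. The mean of the 8 genes ran from 5.51 to 7.03 in untreated and 9.13 to 9.78 in KCl arrays. Deviations from the group means were positively correlated in each same-numbered pair of arrays. The arrays numbered 1 had the lowest estimated array weights, 0.547 and 0.785, and values without both are given where they bear on a call. Fewer cells of a type and less RNA per cell cannot be told apart in such cultures.

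KCl-treated cultures had lower values than untreated ones for most mitochondrial ribosomal protein genes, by small amounts, and 2 of the 71 genes fell past the threshold. These were Mrpl1 and Mrpl51, both of the large subunit, and no member rose (limma, adjusted p under 0.05 over all 22180 genes). The share of members that fell was 2.82%, against 1.02% of all genes, and 1.34% of all genes rose. Of the genes brighter than the median gene, as 65 of the 71 members were, 1.91% fell. A difference below 0 was found for 62 of the 71 members (87.3%), as against 52.9% of all genes and 56.9% of the genes brighter than the median gene. The median log2 difference of the members was -0.23, which is 0.850 of the untreated level, and that of all genes was -0.01. Before adjustment, 13 of the 71 members had a limma p under 0.05, each of them lower after KCl. Of all 22180 genes 2888 had one, of which 1627 were lower. Of the 11090 genes brighter than the median gene 2338 had one, of which 1352 were lower. With the replicate number as a block, Mrpl1 and Mrpl50 fell, Mrpl51 was lost and none rose, against 2.01% of all genes that fell and 2.43% that rose. Of the 11090 genes brighter than the median gene, 415 fell with the block and 513 rose.

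The KCl arrays lay entirely above the untreated arrays for no member (3.83% of all genes) and entirely below for 7 (9.86%). The latter share was 4.33% of all genes and 6.64% of the genes brighter than the median gene. The 7 members were Mrpl1, Mrpl51, Mrpl19, Mrpl50, Mrpl10, Mrpl47 and Mrps2. In same-numbered pairs of arrays, 22 members were lower after KCl in 4 of 4 pairs (31.0%). This held for 13.2% of all genes and 19.0% of the genes brighter than the median gene. In 4 of 4 pairs 1 member, Mrpl48, was higher (11% of all genes). The standard errors of the members ran from 0.09 for Mrpl14 to 0.45 for Mrpl23, with a median of 0.19, which is close to the size of the median difference. Members differed widely in brightness, from a mean of 3.89 for Mrpl27 to 8.70 for Mrpl42. The median difference was -0.21 over the 35 brighter members and -0.24 over the 36 dimmer ones. Across the 71 genes, which share the same arrays, brightness and difference correlated at r = -0.0023.

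**Figure D1:**
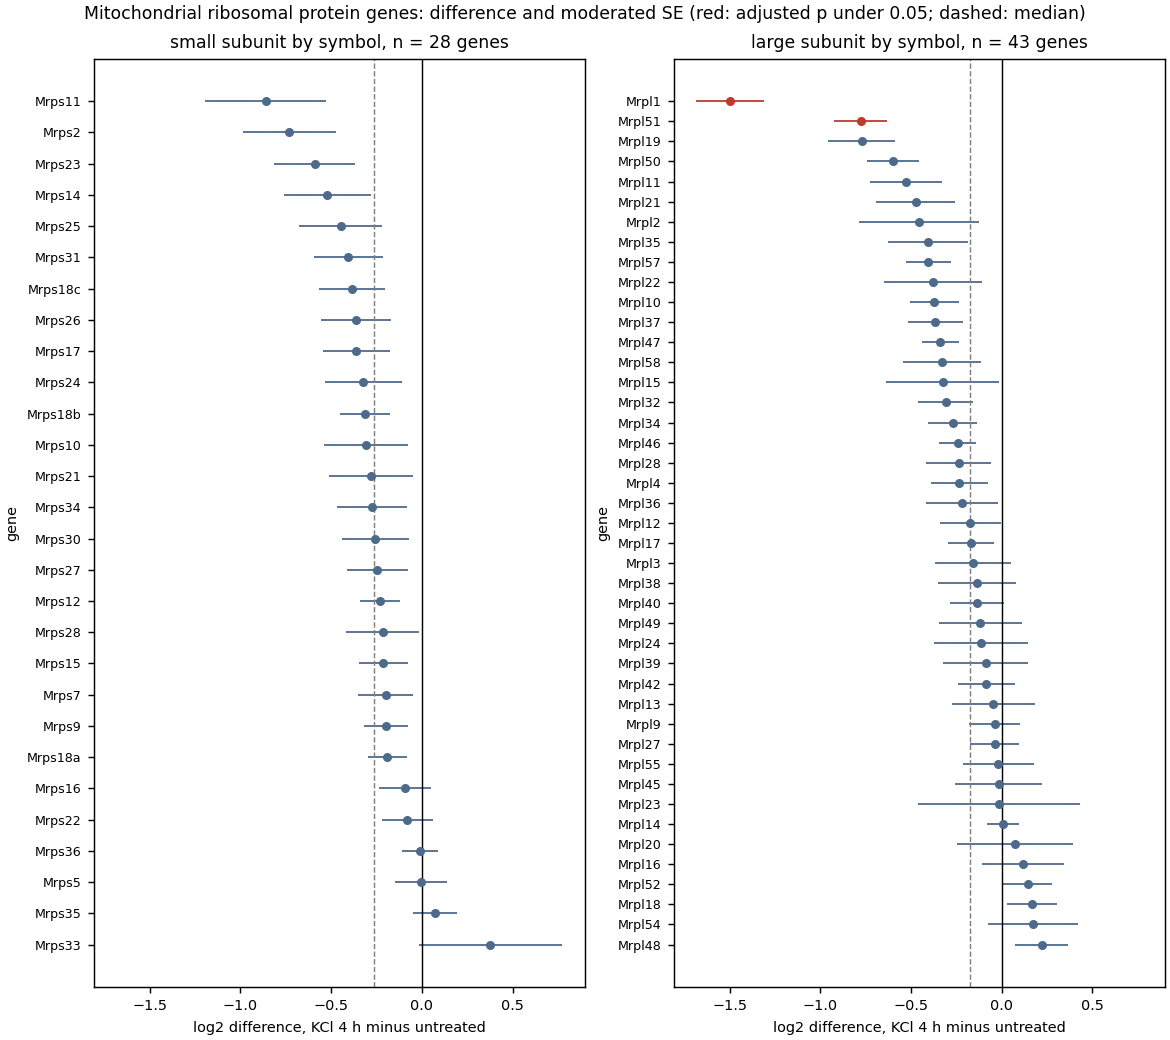
Each point is the log2 difference, KCl 4 h minus untreated, of a mitochondrial ribosomal protein gene with its moderated standard error as the bar, for the 28 small-subunit symbols (left) and 43 large-subunit symbols (right). Most points lie left of 0, with medians (dashed) of -0.27 and -0.17, and Mrpl1 at -1.50 and Mrpl51 at -0.78, in red, are the members past the threshold.

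Mrpl1, whose protein belongs to the mobile stalk next to the site where spent transfer RNA leaves the ribosome, had the largest fall (probe set 17439374). Its untreated values were 6.99, 7.07, 6.89 and 7.04 in replicates 1 to 4, and its KCl values were 5.02, 5.31, 5.88 and 5.79. The untreated arrays lay within a narrow band and every KCl array was well below it, with replicates 1 and 2 the lowest. The mean went from 6.996 ± 0.08 to 5.50 ± 0.41 (SD, n = 4 each), a log2 change of -1.50 (SE 0.19, limma adjusted p = 0.00701), or 0.354 of the untreated level. Mrpl1 passed with any 1 array left out (adjusted p = 0.0082 to 0.0291), with the replicate number as a block (0.0105) and without both arrays numbered 1 (log2 change -1.34, 0.0138).

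Mrpl51, a protein of the large subunit with no bacterial counterpart (probe set 17463140), read 7.02, 7.32, 7.52 and 7.44 in untreated and 6.84, 6.58, 6.42 and 6.36 in KCl arrays. The groups did not overlap, and replicate 1 showed the smallest step. Its log2 change was -0.78 (SE 0.15, limma adjusted p = 0.0337), from 7.33 ± 0.22 to 6.55 ± 0.22 (SD, n = 4 each). This call was less firm: it was lost with the replicate block (adjusted p = 0.0573) and without untreated replicate 2, 3 or 4 or KCl replicate 2, 3 or 4 (0.0765 to 0.107). Without both arrays numbered 1 the log2 change was -0.98 (adjusted p = 0.0110).

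Mrpl50, likewise specific to mitochondria, missed the threshold without the block (adjusted p = 0.0786) and passed with it (0.0476). Its untreated values were 7.92, 7.93, 8.12 and 7.86, and its KCl values 7.61, 7.43, 7.43 and 6.96, with a log2 difference of -0.60 (SE 0.14, and 0.12 with the block). Each KCl array was below every untreated one. Mrpl19, a relative of a bacterial protein at the contact of the subunits, read 6.78, 5.99, 6.56 and 6.71 in untreated and 5.54, 5.85, 5.94 and 5.61 in KCl arrays. Untreated replicate 2 lay close to the KCl group, and without it the adjusted p was 0.0240, whereas with all arrays it was 0.0786 (log2 difference -0.77, SE 0.19).

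**Figure D2:**
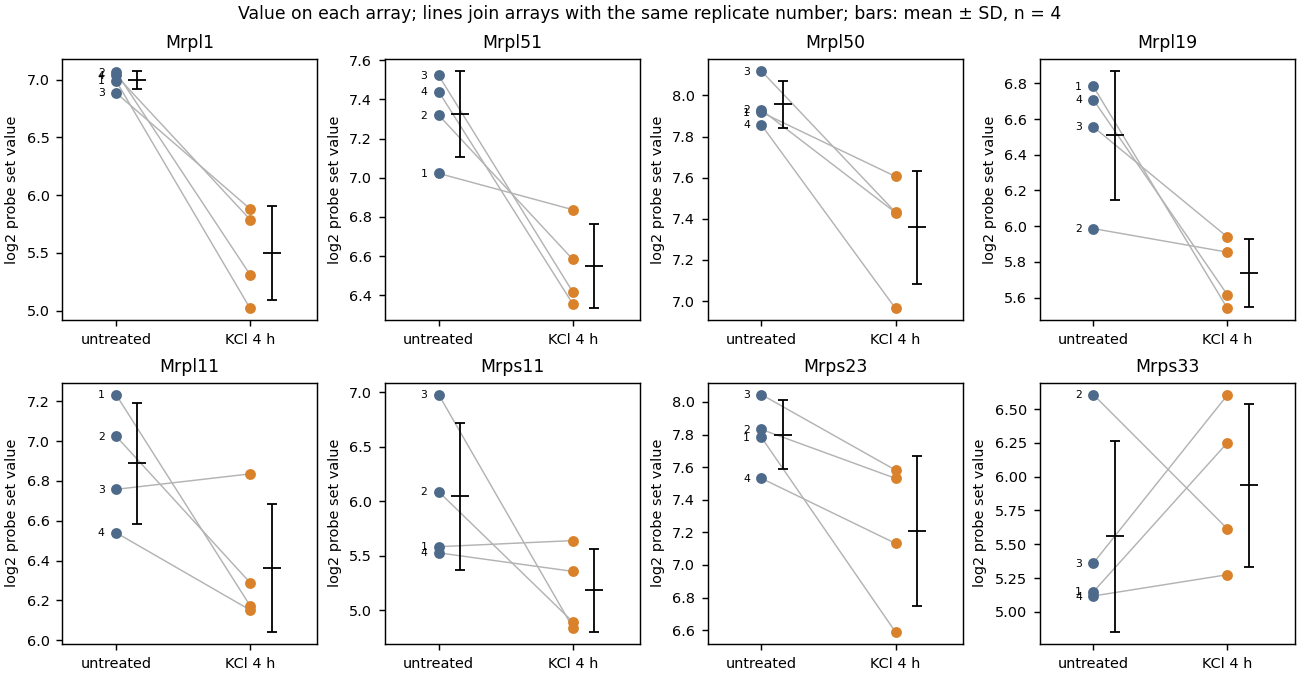
Each panel shows the log2 probe set value of a gene on the 4 untreated (blue) and 4 KCl (orange) arrays, with grey lines joining arrays of the same replicate number and black bars for the mean ± SD. Mrpl1, Mrpl51, Mrpl50 and Mrpl19 show separate groups, Mrpl11, Mrps11 and Mrps23 overlap, and Mrps33 has its highest untreated value, 6.61, at the level of its highest KCl value, 6.60.

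On the far side of the large subunit from Mrpl1 lies a separate stalk, where translation factors dock, and none of its proteins' genes passed the test. Mrpl11, at the base of that stalk, read 7.23, 7.03, 6.76 and 6.54 in untreated and 6.17, 6.29, 6.84 and 6.15 in KCl arrays. Pair 3 went the other way and the groups overlapped (log2 difference -0.53, SE 0.20, limma adjusted p = 0.287). Mrpl10, which carries the stalk, had a log2 difference of -0.37 (adjusted p = 0.262), with the KCl arrays at 8.13 to 8.61 and the untreated ones at 8.64 to 8.86. Mrpl12, the stalk's tip and also a reported partner of the mitochondrial RNA polymerase, stood at -0.17 (adjusted p = 0.812).

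At the other end of the large subunit were Mrpl48 (0.22), Mrpl54 (0.17), Mrpl18 (0.17), Mrpl52 (0.14) and Mrpl16 (0.12), the 5 most positive log2 differences. None passed the test, with adjusted p-values of 0.663 to 0.936. Mrpl48 read 5.93, 5.67, 6.30 and 6.17 in untreated and 6.34, 6.03, 6.30 and 6.27 in KCl arrays, and pair 3 was level to within rounding. Mrpl16, the relative of a bacterial protein near the peptidyl transferase centre, was at -0.10 without untreated replicate 1 and -0.12 without both arrays numbered 1. Mrpl54 was at -0.04 without KCl replicate 3. The direction of Mrpl16 and Mrpl54 therefore rested on single arrays, while Mrpl48, Mrpl18 and Mrpl52 stayed above 0 with any 1 array left out.

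None of the 28 small-subunit symbols passed the threshold, in either direction. Before adjustment 3 of them had a limma p under 0.05, each lower after KCl, as had 10 of the 43 large-subunit symbols. Of all 22180 genes 2888 had one, of which 1627 were lower. The most negative was Mrps11, a relative of a bacterial protein of the platform that faces the large subunit. It read 5.58, 6.09, 6.98 and 5.53 in untreated and 5.64, 4.89, 4.84 and 5.36 in KCl arrays. Untreated replicate 3 was far above the others, replicates 1 and 4 barely differed between the groups, and the log2 difference of -0.86 had an SE of 0.33 (adjusted p = 0.302). Mrps2, whose bacterial relative lies between head and body of the subunit, showed a similar arrangement, with 5.62, 5.55, 6.465 and 5.68 against 5.49, 5.31, 4.58 and 5.01. The groups did not overlap, but the spread was wide (log2 difference -0.73, SE 0.26, adjusted p = 0.239).

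Next came Mrps23 (log2 difference -0.59, adjusted p = 0.292), Mrps14 (-0.52, 0.410) and Mrps25 (-0.45, 0.494), of which Mrps23 and Mrps25 have no bacterial counterpart. Mrps25 read 6.46, 6.71, 7.19 and 6.88 in untreated and 5.85, 6.20, 6.80 and 6.60 in KCl arrays. All 4 pairs stepped down, most in pair 1 and least in pair 4, while the levels of the pairs differed. The SE of Mrps25 was 0.23 without and 0.10 with the replicate block (limma adjusted p = 0.0616 with it). Mrps14 passed without untreated replicate 1 (adjusted p = 0.0387), which at 4.22 was below the other untreated arrays at 5.04 to 5.27. Mrps17, a relative of a bacterial protein that binds ribosomal RNA early in assembly, passed without untreated replicate 4 (0.0451). With all arrays, its log2 difference was -0.36 (adjusted p = 0.491).

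The small-subunit symbols of most positive difference were Mrps33 (0.38, SE 0.40) and Mrps35 (0.07), followed by Mrps5 (-0.0044), Mrps36 (-0.01) and Mrps22 (-0.08). Mrps33 read 5.15, 6.61, 5.36 and 5.12 in untreated and 6.25, 5.61, 6.60 and 5.27 in KCl arrays, with pair 2 opposite to the other 3. Mrps5, whose bacterial relative bears on decoding accuracy, read 7.02, 7.40, 7.28 and 7.46 and then 7.45, 7.10, 7.50 and 7.08, so the groups lay over each other. Its sign changed with the arrays' scaling (0.03 after repeated quantile normalization and 0.0015 with array medians centred), and no direction can be given for it. The 3 symbols whose subunit is not that of their name stood at -0.26 for Mrps30, -0.19 for Mrps18a and -0.01 for Mrps36, none past the test (adjusted p = 0.691, 0.552 and 0.989).

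The rule set the small against the large subunit. The median log2 difference was -0.27 over the 28 small-subunit symbols, with 26 below 0, and -0.17 over the 43 large-subunit symbols, with 36 below 0. By structure it was -0.28 over 25 genes and -0.19 over 45. Averaged over genes on each array, the small-subunit members read 6.05, 6.26, 6.32 and 6.07 in untreated and 5.88, 5.89, 6.01 and 5.83 in KCl arrays. The large-subunit members read 6.45, 6.47, 6.61 and 6.43 in untreated and 6.24, 6.23, 6.46 and 6.10 in KCl arrays. Each of the 4 pairs was lower after KCl for either subunit, by 0.17 to 0.38 for the small and 0.15 to 0.33 for the large. The small-subunit means did not overlap between the groups, and the large-subunit mean of KCl replicate 3 lay above that of untreated replicate 4.

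The balance between the subunits did not shift beyond the spread of the pairs. The mean of the small minus that of the large members was -0.40, -0.21, -0.29 and -0.36 on the untreated arrays and -0.35, -0.34, -0.44 and -0.28 on the KCl arrays. It moved by 0.04, -0.13, -0.16 and 0.09 in pairs 1 to 4, up in pairs 1 and 4 and down in pairs 2 and 3. The mean movement was -0.04 with an SD of 0.12 over the 4 pairs, and by structure it was -0.06 with an SD of 0.17. Among the 10 most negative members 4 were of the small and 6 of the large subunit, and among the 10 most positive 3 and 7. Both calls and 6 of the 7 members whose groups did not overlap were among the 43 large-subunit symbols, and 1 of the 7 was among the 28 small-subunit symbols. Over all genes 1.02% fell and 4.33% had KCl arrays entirely below. Over the genes brighter than the median gene these shares were 1.91% and 6.64%. The subunits' counts were not tested against each other.

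**Figure D3:**
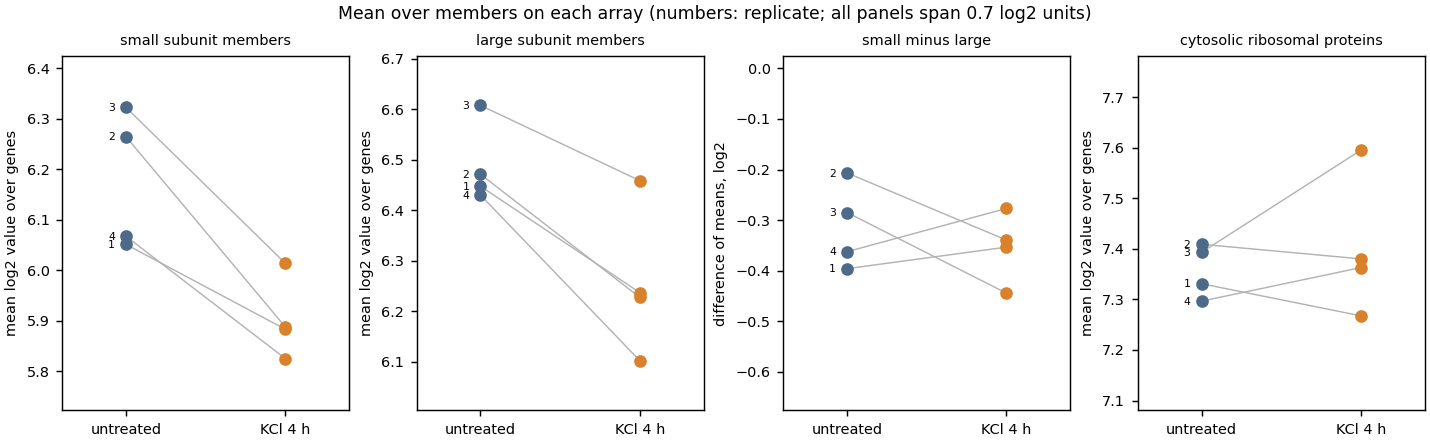
Mean log2 value over the 28 small-subunit members, the 43 large-subunit members, their difference, and 64 cytosolic ribosomal protein genes, on each array, with grey lines joining arrays of the same replicate number. The subunit means step down in all 4 pairs, while the difference of the subunits goes up in pairs 1 and 4 and down in pairs 2 and 3.

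Members with and without a bacterial relative had similar medians. The 45 members with a bacterial relative had a median log2 difference of -0.23, with 41 below 0, and the 26 without had -0.19, with 21 below 0. Within the small subunit by structure, 16 of 16 members with a bacterial relative were below 0 (median -0.29), and 7 of 9 without (-0.28). Within the large subunit the numbers were 25 of 29 (median -0.22) and 13 of 16 (-0.14, and -0.22 without both arrays numbered 1). Each class of the large subunit held 1 of the calls, Mrpl1 with and Mrpl51 without a bacterial relative.

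The 9 members with 2 probe sets gave a second reading. For Mrpl47, whose protein lies beside the exit of the new chain, the chosen and the other probe set had differences of -0.34 and -0.39 (adjusted p over all probe sets = 0.162 and 0.290). Both probe sets of Mrps18b (-0.31 and -0.30) and of Mrps17 (-0.36 and -0.32) were also alike in difference. The unchosen one of Mrps17 had a mean of 4.19, below the array medians (adjusted p over all probe sets = 0.611). The unchosen probe sets of Mrpl10 (-0.02), Mrpl36 (-0.02), Mrps18c (-0.10), Mrps16 (0.03) and Mrps5 (0.05) had means of 3.86 to 4.27, below the array medians, and differed little. The differences on the chosen ones were -0.37, -0.22, -0.39, -0.09 and -0.0044. Mrpl12 had -0.17 on the chosen and -0.16 on the other probe set, whose mean of 4.09 was also below the array medians. Over the 9 genes, 7 of the unchosen probe sets were below 0, with a median of -0.10, while 52.9% of all genes were below 0.

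A further 7 symbols of the ribosome, Mrpl30, Mrpl33, Mrpl41, Mrpl43, Mrpl44, Mrpl53 and Mrps6, appeared only on probe sets annotated to another gene as well, and are no members. With 4 members that have an additional such probe set, 13 shared probe sets were measured. Below 0 were 10 of the 13, against 52.9% of all genes, and 1 fell, against 1.02% of all genes. These names lay outside the naming rule and were looked at after the values were seen. The probe set of Mrpl30 and the predicted gene Gm6238 was lower after KCl, at 5.61, 5.22, 5.68 and 5.65 against 5.05, 4.86, 4.75 and 4.65 (log2 change -0.71, limma adjusted p over all probe sets = 0.0394, 0.0511 with the block). The probe set of Mrps6 and Slc5a3, a myo-inositol transporter gene of the same locus, went up, from 7.38, 8.48, 8.54 and 8.07 to 8.64, 9.32, 9.59 and 9.26. Its log2 difference of 1.09 missed the threshold without the block (adjusted p = 0.140) and passed with it (0.00868). The signal of a shared probe set cannot be given to either gene.

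A further 3 measured proteins of the mitochondrial ribosome carry other names. Ptcd3, which sits at the entry of the messenger RNA, read 8.31, 8.38, 8.21 and 8.41 in untreated and 7.98, 8.004, 7.94 and 7.65 in KCl arrays, with no overlap (log2 difference -0.43, limma adjusted p = 0.0825). Dap3, a GTP-binding protein of the small subunit, stood at 0.08 (adjusted p = 0.933). Gadd45gip1, a large-subunit protein first described as a binding partner of the Gadd45 family named in the series title, stood at -0.08 (adjusted p = 0.905) and read 4.48, 4.72, 4.46 and 4.97, then 4.51, 4.57, 4.66 and 4.57. None of the 3 passed, and at an unadjusted p under 0.05 there was 1.

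Factors that work with the mitochondrial ribosome were read from lists of translation, assembly, transfer RNA charging and DNA genes, in which some genes fell and none rose. Of 13 translation factors 2 fell (15.4%, against 1.02% of all genes and 1.91% of those brighter than the median gene). Below 0 were 13 of 13, against 52.9% of all genes, with a median log2 difference of -0.21. Gfm2, the factor that splits the ribosome after a round of translation, fell from 7.23, 7.23, 7.39 and 7.12 to 6.39, 6.41, 6.02 and 6.44 (log2 change -0.93, SE 0.12, limma adjusted p = 0.0078). Mtfmt, which formylates the initiator methionine, read 6.31, 6.57, 6.89 and 6.62 and then 5.93, 5.55, 5.92 and 5.77 (-0.80, adjusted p = 0.0267). KCl arrays lay entirely below for 5 of the 13 (38.5%, against 4.33% of all genes), Gfm2 and Mtfmt among them. Gfm2 passed in all 8 fits with an array left out, while Mtfmt was lost without untreated replicate 2, 3 or 4 or KCl replicate 2, 3 or 4 (up to 0.0797). Next by p was the release factor Mtrf1 (-0.45, adjusted p = 0.268).

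Of 26 factors that assemble the ribosome or modify its RNA, 3 fell (11.5%, against 1.02% of all genes). Below 0 were 22 of the 26 (84.6%, against 52.9% of all genes), with a median of -0.33. Mettl17, needed for assembly of the small subunit, fell from 5.64, 6.08, 5.77 and 5.71 to 4.97, 4.76, 4.96 and 4.97 (log2 change -0.89, SE 0.12, limma adjusted p = 0.00872). Dhx30, an RNA helicase of mitochondrial RNA granules, had -0.86 (adjusted p = 0.0281). Tfb1m, which methylates the small-subunit ribosomal RNA, had -0.83 (adjusted p = 0.0450). Mettl17 passed with any 1 array left out. Dhx30 was lost without untreated replicate 3 or any KCl replicate (up to 0.0850) and without both arrays numbered 1 (0.0674). Tfb1m was lost with the replicate block (0.0602), without both arrays numbered 1 (0.117) and in each single-array fit but that without untreated replicate 2 (up to 0.130). Without both arrays numbered 1, 1 of the 26 fell.

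Among 21 mitochondrial aminoacyl-tRNA synthetases and related enzymes, which charge transfer RNAs, Rars2 for arginine fell and 20 did not pass. Rars2 read 6.80, 6.84, 7.004 and 6.52 in untreated and 5.66, 5.76, 5.29 and 5.57 in KCl arrays (log2 change -1.22, SE 0.14, limma adjusted p = 0.00484). The median of this list was -0.09, with 14 of 21 below 0 (66.7%, against 52.9% of all genes). Next by p were Vars2 (-0.42, adjusted p = 0.315) and Aars2 (0.29, 0.357). Of 20 genes of mitochondrial DNA maintenance and transcription, Tefm, the elongation factor of the mitochondrial RNA polymerase, fell from 5.01, 4.93, 5.2003 and 5.19 to 4.17, 4.27, 4.37 and 4.16 (-0.84, SE 0.10, adjusted p = 0.00531). Over the 20 genes the median was -0.23, with 14 below 0 (70%, against 52.9% of all genes). Rars2 and Tefm each passed with any 1 array left out. These calls made up 4.76% and 5% of their lists, against 1.02% of all genes that fell. Mterf2 (-1.01, adjusted p = 0.100) and the poly(A) polymerase Mtpap (-0.87, 0.115) missed the threshold. Mterf2 passed without untreated replicate 4 (0.0490), and Mtpap without untreated replicate 1 (0.0484) and without both arrays numbered 1 (0.0169).

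Regulators known for controlling mitochondrial genes in the nucleus did not pass. Over 15 of them the median log2 difference was 0.16, with 10 above 0, but 0.04 without both arrays numbered 1. Their mean differed by 0.37, 0.15, -0.03 and -0.08 in pairs 1 to 4, so only pairs 1 and 2 were higher. Before adjustment 3 of the 15 regulators had a limma p under 0.05, 1 of them lower. Of all 22180 genes 2888 had one, as had 2338 of the 11090 genes brighter than the median gene. Ranked by p, the list was led by the coactivator Ppargc1b (-0.32, adjusted p = 0.299), the zinc finger factor Yy1 (0.63, 0.347) and Gabpb1, a subunit of an ETS-family factor (0.47, 0.380). Cytosolic ribosomal protein genes, measured on the same arrays, had a median of 0.01 over 64 genes, with 29 below 0, none past the threshold and 1 at an unadjusted p under 0.05. Their mean per array ran from 7.30 to 7.41 in untreated and 7.27 to 7.60 in KCl arrays, so it overlapped. The sign of this median was negative without untreated replicate 1 (-0.01) or 4 (-0.007) or KCl replicate 3 (-0.03), and no direction is given for it. Smallest in p were Rpl32l (1.58, limma adjusted p = 0.256), Rpl22 (0.41, 0.519) and Rpl32 (0.21, 0.522). Rpl32l read 4.80, 4.70, 4.85 and 4.56 in untreated and 5.05, 5.27, 7.30 and 7.62 in KCl arrays. Many cytosolic ribosomal protein genes have near-identical copies elsewhere in the genome, and their probe sets may read several.

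**Figure D4:**
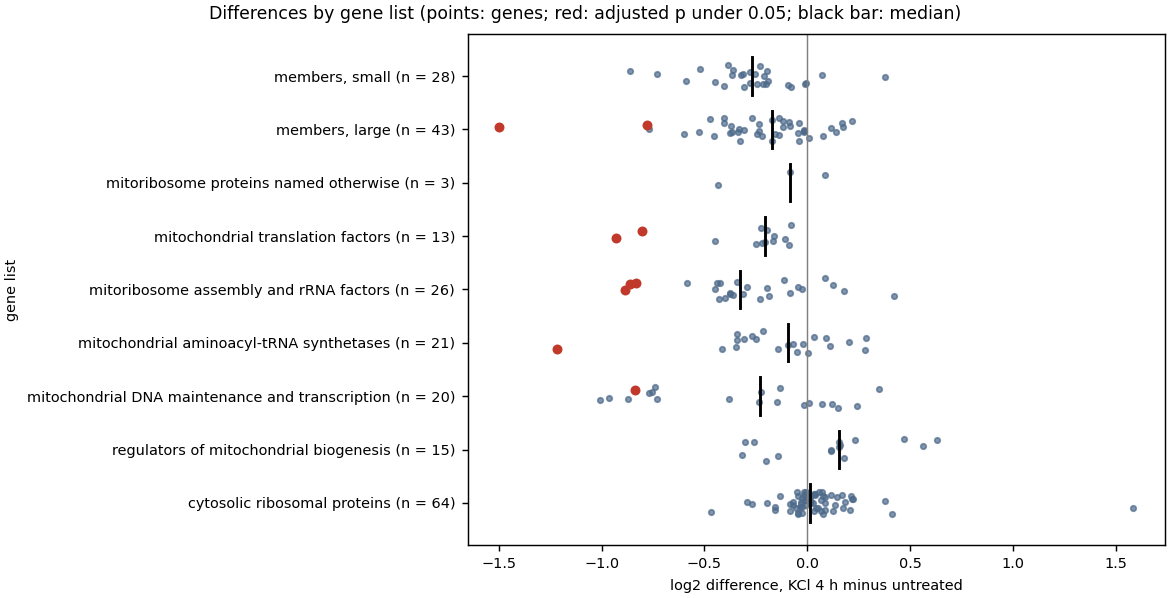
Log2 difference, KCl 4 h minus untreated, of each gene in the small and large mitochondrial subunits, 6 related mitochondrial lists and the cytosolic ribosomal proteins, with black bars at the medians and genes past the threshold in red. The medians of the subunits are -0.27 and -0.17, that of the assembly factors -0.33, and that of the cytosolic ribosomal proteins 0.01.

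The promoters of the members were examined as sequence, since most members lay below 0 together. The RefSeq table of build GRCm38.p6 gives windows of 300 bases, from 250 before to 50 after the start, and held 68 windows for 62 of the 71 members. The windows of Mrpl1 and Mrpl51, which fell, of Mrpl50, which passed with the block, and of Mrps11, the most negative small-subunit symbol, are printed 5′ to 3′ on the strand of the gene, with matches to the motifs named below in capitals. The windows are chr5:96209865-96210164 (plus strand), chr6:125191950-125192249 (plus), chr4:49521034-49521333 (minus) and chr7:78782881-78783180 (plus), in that order.
Mrpl1: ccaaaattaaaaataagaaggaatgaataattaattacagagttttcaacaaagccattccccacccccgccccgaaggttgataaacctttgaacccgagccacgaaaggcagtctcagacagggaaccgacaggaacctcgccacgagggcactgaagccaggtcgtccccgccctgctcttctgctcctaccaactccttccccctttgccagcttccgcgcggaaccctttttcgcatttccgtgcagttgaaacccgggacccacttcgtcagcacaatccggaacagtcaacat
Mrpl51: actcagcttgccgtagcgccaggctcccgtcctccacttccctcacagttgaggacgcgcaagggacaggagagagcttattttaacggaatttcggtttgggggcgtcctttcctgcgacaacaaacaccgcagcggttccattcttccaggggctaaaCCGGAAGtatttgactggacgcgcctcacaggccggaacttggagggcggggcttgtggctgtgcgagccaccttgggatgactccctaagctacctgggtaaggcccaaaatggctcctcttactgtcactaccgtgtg
Mrpl50: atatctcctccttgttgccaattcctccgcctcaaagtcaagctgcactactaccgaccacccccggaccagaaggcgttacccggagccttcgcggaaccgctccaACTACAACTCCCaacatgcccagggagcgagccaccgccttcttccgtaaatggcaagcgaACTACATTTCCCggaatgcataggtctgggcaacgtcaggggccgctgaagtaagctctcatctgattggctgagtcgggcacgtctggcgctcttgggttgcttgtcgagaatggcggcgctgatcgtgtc
Mrps11: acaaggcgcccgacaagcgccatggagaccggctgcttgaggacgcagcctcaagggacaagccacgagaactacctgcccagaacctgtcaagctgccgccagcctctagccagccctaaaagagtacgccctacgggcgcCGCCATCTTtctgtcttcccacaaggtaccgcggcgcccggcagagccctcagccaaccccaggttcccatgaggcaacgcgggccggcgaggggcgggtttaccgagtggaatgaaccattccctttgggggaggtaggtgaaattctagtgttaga

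Motifs were searched as letters on both strands: ETS as CCGGAAG, YY1 as AAGATGGCG, and NRF-1 and ZNF143 by their consensus sequences, with CRE as TGACGTCA and AP-1 as TGANTCA for factors tied to neuronal activity. The window of Mrpl1 held none of the 6. Mrpl51 had an ETS match that begins at -90, Mrpl50 had ZNF143 matches at -143 and -82, and Mrps11 had a YY1 match, on the other strand, at -108. Over all member windows, ETS was found in 23 of 68 (33.8%, against 8.86% of all 32851 windows), NRF-1 in 11 (16.2%, against 4.603%), YY1 in 8 (11.8%, against 1.403%) and ZNF143 in 5 (7.35%, against 1.81%). At least 1 of these 4 was in 38 windows (55.9%), as against 14.9% of all windows, which include those of non-coding genes. CRE was found in 2 member windows (2.94%, against 1.79%) and AP-1 in 2 (2.94%, against 7.81%).

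The 23 members with an ETS match had a median log2 difference of -0.24, and the 39 without had -0.24. The 11 with an NRF-1 match had -0.17, against -0.24 for 51 without, and the 8 with a YY1 match -0.28, against -0.23 for 54 without. Few members held the other motifs: the median was -0.12 for 5 with ZNF143 against -0.24 for 57 without, -0.0017 for 2 with CRE against -0.24 for 60, and -0.23 for 2 with AP-1 against -0.24 for 60. A match in these letters is a description of the window and not evidence of binding.

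**Figure D5:**
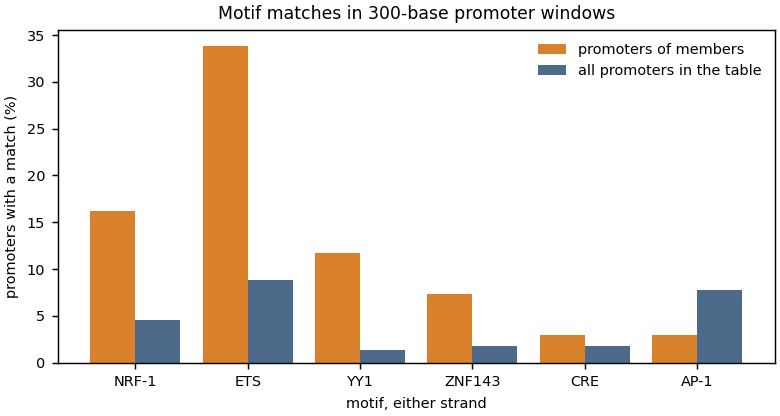
Share of 300-base promoter windows with a match to each motif on either strand, for the 68 windows of members (orange) and all 32851 windows in the table (blue). ETS, NRF-1, YY1 and ZNF143 are more frequent in member windows, at 33.8% against 8.86% for ETS, while AP-1 is at 2.94% against 7.81%.

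Markers of other cells were read beside these differences. Of 9 astrocyte markers, the glutamate transporter Slc1a2 fell (log2 change -0.78, limma adjusted p = 0.0479) and 8 did not pass. This call made up 11.1% of the list, against 1.02% of all genes that fell. It was lost with the block (0.0620) and without both arrays numbered 1 (0.130). It was also lost in each single-array fit but that without untreated replicate 2 (up to 0.140). Of the 9, 6 were below 0 (66.7%, against 52.9% of all genes) and 3 above, with a median of -0.10, but 0.03 without both arrays numbered 1. Summed on the linear scale, the astrocyte list ran from 6968 to 12468 in untreated and 6838 to 10137 in KCl arrays, and the neuronal list of 10 genes from 21349 to 25793 and 19766 to 23115. Of the neuronal markers 8 of 10 were below 0 (median -0.04, against 52.9% of all genes below 0) and none passed without the block. Before adjustment 1 neuronal marker had a limma p under 0.05, and it was higher after KCl. The log2 differences of the list ran from -0.49 to 1.08. Gad2, which makes the transmitter GABA, read 7.17, 8.19, 9.15 and 8.85 in untreated and 6.70, 7.87, 8.54 and 8.29 in KCl arrays, lower in 4 of 4 pairs (log2 difference -0.49, adjusted p = 0.832, and 0.0458 with the block). Of 7 markers of progenitor and cycling cells none passed over all genes, 1 did at an unadjusted p under 0.05, and 7 of 7 were above 0 (median 0.51), with sums of 591 to 945 and 667 to 1071. Pax6, a progenitor transcription factor among them, passed with the replicate block (0.0461), and 1 of the 7 rose without both arrays numbered 1. Of all 22180 genes, 2888 had a limma p under 0.05 before adjustment and 10456 were above 0. The lists of microglia, the oligodendrocyte lineage, endothelial cells and fibroblasts held no call. The markers named here were picked after their values were seen. Probe sets have no true 0, and the part of these cells in the members' differences was not tested.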

How the data were processed

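The deposited table holds log2 probe set values for 8 arrays, 4 per group, each placed by its title. RMA and Partek made them, per the submitters' processing notes. RMA corrects background and normalizes between arrays, which compresses differences of dim genes. Whether batches were adjusted for is unstated in the labels, and signal over background was not assessed. Of 34472 probe sets, 23521 had a single platform symbol. The probe set of highest mean was kept per gene, with no filter on low values, leaving 22180 genes. No arrays were identical.

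The comparison used lmFit and eBayes of limma 3.58.1 (R 4.3.3), with group as the only term and two-sided p-values, Benjamini-Hochberg adjustment over all genes and a threshold of 0.05. The fit was tested on simulated data. Medians and counts over lists carry no test. Members and lists were chosen with earlier results of these data known. Named members are those past the threshold with or without the replicate block, the 5 most positive and 5 most negative per subunit, those with 2 probe sets and those whose structure differs from their symbol. Of other lists, the genes past the threshold and the 3 of smallest p are named. Of the cell type markers, only those past the threshold with or without the replicate block are named.

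Both groups carry replicate numbers 1 to 4, while the mouse numbers differ. Deviations from the group means correlated at 0.638, 0.234, 0.409 and 0.368 across genes in same-numbered pairs, all above 0.1, so the numbers were taken to pair the arrays. Some other pairs also correlated, at 0.302 for untreated 3 with KCl 4 and 0.269 for untreated 4 with KCl 3, above same-numbered pair 2. Results come from the planned fit without this block, and a blocked fit was an alternative. Other alternatives were repeated quantile normalization, centred medians, brighter genes, the mean of all probe sets, trended robust eBayes, array weights and leaving out each array. Fits without both arrays numbered 1 were added after seeing the data. Python 3.11.15 and matplotlib 3.10.9 made the figures.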

Additional observations from a re-analysis of the deposited data

Results flagged for a closer look

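Named members and subunit means were checked for a lone array in each group of 4, and 3 of 66 groups had one whose gap to the nearest other array made up most of the group's range. Chance gives about 1 in 20 groups. Mrps2 read 6.465 in untreated replicate 3 and 5.55 to 5.68 in the other 3 untreated arrays. Mrps33 read 6.61 in untreated replicate 2 and 5.12 to 5.36 in the others. Mrps35 read 5.98 in untreated replicate 1 and 5.73 to 5.75 in the others. All 3 are high values in the untreated group, each in a different array.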

How the results depend on the processing

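Mrpl1 fell in every alternative run, and no member rose in any. The count of members that fell was 1 with trended and robust eBayes (Mrpl51 at adjusted p = 0.0748) and 1 to 3 with an array left out. Repeated quantile normalization gave 3, with Mrpl50 added (0.0274). With the replicate block Mrpl51 was lost (0.0573) and Mrpl50 gained (0.0476), with no other member's call changed, while calls over all genes went from 227 to 446 for falls and from 297 to 539 for rises. The small-subunit median was -0.19 after repeated quantile normalization and -0.35 to -0.22 with an array left out, and the large-subunit median -0.14 and -0.25 to -0.16. The difference between the subunits ranged from -0.07 to -0.0057. Members below 0 numbered 52 to 64 of 71, lowest without KCl replicate 4. Leaving out an array changed the sign of 18 of the 71 members, all but Mrpl16, Mrpl54, Mrps5 and Mrps36 outside the named ones. Over all alternatives the named ones were Mrps5 (0.029 after quantile normalization, 0.0015 with medians centred, 0.023 as the mean of probe sets, -0.093 to 0.063 with an array left out), Mrps36 (-0.068 to 0.037), Mrpl16 (-0.10 to 0.29, and -0.12 without both arrays numbered 1, with or without the block) and Mrpl54 (-0.040 to 0.29). The cause of these changes was not tested. With 4 arrays a group, small differences of dim genes are the least certain.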

Other observations

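Many members start next to another gene on the opposite strand. In the RefSeq annotation 24 members had such a neighbour, with start sites at most 1000 bases apart, and Mrpl46 and Mrps11 were each other's neighbour at 42 bases, with log2 differences of -0.24 and -0.86. Of the other 22 pairs, both genes were below 0 in 12, the member alone in 7, and the member was above 0 in 3. The median of the neighbours was -0.14, against -0.01 for all genes, of which 52.9% were below 0. Across the 22 pairs the differences of member and neighbour correlated at r = -0.09. Helq, a DNA helicase gene 159 bases from Mrps18c, was the 1 neighbour that fell, against 1.02% of all genes. It read 5.59, 5.78, 5.96 and 5.75 in untreated and 4.75, 4.83, 4.72 and 4.85 in KCl arrays (log2 change -0.98, SE 0.10, limma adjusted p = 0.00317), while Mrps18c stood at -0.39 (0.429). Zfp189, beside Mrpl50, stood at 0.0012 (adjusted p = 1.00), and the condensin gene Ncapd2, beside Mrpl51, at -0.08 (0.943). These pairs were chosen after the values were seen.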
